A study of Mus musculus with 9 samples.

Results

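The numbered Zfp genes are mouse genes named Zfp followed by a number, and most of them encode proteins with C2H2 zinc fingers. Of 24061 gene symbols in the count table, 332 carried such a name once Zfp36, an RNA-binding protein with CCCH fingers, was set aside. The members were chosen by this name and by 1 measured value, a summed count of at least 90 over the 9 libraries. This floor was met by 229 symbols, 103 fell under it, and 33 of those 103 had no read at all. Reads on bases shared with other transcripts were not counted, so a symbol with no read may not have been countable. The total used for the floor is a description and supports nothing below. Just outside the floor lay Zfp672 with 81 counts, Zfp286 with 84 and Zfp444 with 89, and just inside it lay Zfp414 with 91, Zfp9 with 94 and Zfp112 with 113.

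RNA was sequenced from bone-marrow-derived macrophages (BMDMs) of female C57BL/6J mice aged 8 to 10 weeks, in 3 individually differentiated cultures per group. All cells were differentiated for 7 days and then kept without serum, and the controls carried the DMSO solvent. The Veh group had neither agent, and the LPS group had 10 ng/mL lipopolysaccharide for 2 hr. The T0+LPS group had 500 nM T0901317 (T0), an agonist of the nuclear receptor LXR, for 3 hr before the same LPS. LPS was added to the medium that held T0, so T0 stayed present during the 2 hr of LPS. There was no group with T0 alone, so each effect of T0 below was measured in LPS-treated cells. The harvest time of the Veh cultures was not given in the sources used here, and a day or batch of culture was not given either.

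Each library held 13299044 to 16467983 counts assigned to genes. Macrophage markers were abundant in all 9 libraries, although Itgam, 1 of the 7 macrophage markers in the table, had no read. Their sum was 24300 to 26500 CPM in Veh, 28900 to 30500 in LPS and 31500 to 33100 in T0+LPS. CPM is the count scaled to a common library size. Lyz2 held most of the sum, with group means of 19770, 21420 and 23720 CPM. In LPS against Veh, Csf1r (log2 0.25), Lyz2 (0.12) and Cd14 (1.73) were called higher. Fcgr1 (−0.84) and Mertk (−0.81) were called lower, and Cd68 was not called. Mertk was called higher in T0+LPS against LPS (1.07). The neutrophil and granulocyte precursor markers summed to 77.6 to 83.4 CPM in Veh, 85.9 to 98.8 in LPS and 83.8 to 97.7 in T0+LPS, nearly all of it Mmp8, and S100a9 had no read. Of these, Mmp8 and S100a8 were called higher in LPS against Veh (log2 0.20 and 1.21). The dendritic cell markers summed to 0.406 to 0.530 CPM in Veh, 2.24 to 2.91 in LPS and 2.08 to 2.99 in T0+LPS, and Xcr1 was called higher (2.89). The T cell markers summed to 1.70 to 3.37 CPM over all libraries with Cd3e and Cd8a at 0. Cd4 was called lower in LPS against Veh (log2 −0.54). The fibroblast markers summed to at most 0.662 and the 4 B cell markers to at most 0.214, and the 4 erythroid markers had no read. Reads on bases shared with other transcripts were not counted, so a gene with no read may not have been countable. The zeros therefore do not show that a cell type was absent. The part of other cell types in the results was not tested. The 4 genes taken as an LPS check (Il1b, Ptgs2, Tnf and Cxcl2) all rose in LPS against Veh.

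A C2H2 finger is a short loop held by a zinc ion between a pair of cysteines and a pair of histidines. A row of fingers can read a stretch of DNA. Many of these proteins also carry a KRAB domain, which recruits the corepressor Trim28 (KAP1) and with it histone methylation and deacetylation, and this is best known as a way to silence retroelements and imprinted loci. Other members have no KRAB domain and act as transcription factors, cofactors, or in ribosome and ubiquitin pathways. KRAB genes lie in clusters of similar copies, so reads from near-identical neighbours could be shared between them or lost. How reads with several matches were treated was not given in the sources used here, and the levels of clustered members are uncertain to that extent.

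Of the 229 members, 128 had a protein in which a KRAB A box pattern was found, 100 did not, and 1 could not be matched to a protein. The pattern is a search on letters, so a member called without it may still carry a diverged box or one in another isoform. The median number of fingers was 11 over the 228 matched members, 12 with the KRAB pattern and 7 without it. Zfp142 had the most, 36, followed by Zfp462 and Zfp619 with 33 each and Zfp236 with 30. The members per kb of their own sequence ranged from 0.170 to 146 CPM per kb with a median of 3.21, a level measured over the mean of 9 libraries and over bases that no other transcript shared. Per kb, Zfp263 was highest at 146, then Zfp91 at 47.7, Zfp622 at 31.9, Zfp106 at 31.3, Zfp598 at 29.0 and Zfp800 at 25.1. This mean takes in the LPS-treated libraries, so the levels of Zfp263 and Zfp800 include their rise in LPS, given below. Zfp622 and Zfp106 are neighbours in this order with nearly the same level.

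The promoters of the 3 members with the largest rises in LPS against Veh, Zfp558, Zfp263 and Zfp719, are shown with that of Zfp658, the neighbour of Zfp719, so that the genes described first can be read beside their values. They were picked after the values were seen. RefSeq promoters of GRCm38.p6, which run from 250 bases before a start to 50 bases after it, were found for 191 of the 229 members. Capitals mark the letters CCGGAAG, an ETS-type motif, found on either strand, and the 4 sequences are written on the gene's own strand, 5′ to 3′. They are Zfp263 at chr16:3743849-3744148 (plus strand), Zfp558 at chr9:18473510-18473809 (minus strand), Zfp658 at chr7:43562120-43562419 (plus strand) and Zfp719 at chr7:43579336-43579635 (plus strand).
Zfp263: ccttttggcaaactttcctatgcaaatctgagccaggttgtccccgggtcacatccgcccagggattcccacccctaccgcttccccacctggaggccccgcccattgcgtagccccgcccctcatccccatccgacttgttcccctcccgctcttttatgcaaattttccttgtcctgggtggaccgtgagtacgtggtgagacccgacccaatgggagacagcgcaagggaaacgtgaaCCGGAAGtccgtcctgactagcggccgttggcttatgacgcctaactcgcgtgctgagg
Zfp558: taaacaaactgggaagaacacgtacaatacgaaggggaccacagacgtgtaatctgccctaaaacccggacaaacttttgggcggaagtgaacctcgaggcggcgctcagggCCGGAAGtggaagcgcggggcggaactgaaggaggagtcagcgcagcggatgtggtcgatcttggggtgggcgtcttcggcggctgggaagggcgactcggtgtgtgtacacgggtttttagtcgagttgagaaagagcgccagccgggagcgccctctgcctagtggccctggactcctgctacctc
Zfp658: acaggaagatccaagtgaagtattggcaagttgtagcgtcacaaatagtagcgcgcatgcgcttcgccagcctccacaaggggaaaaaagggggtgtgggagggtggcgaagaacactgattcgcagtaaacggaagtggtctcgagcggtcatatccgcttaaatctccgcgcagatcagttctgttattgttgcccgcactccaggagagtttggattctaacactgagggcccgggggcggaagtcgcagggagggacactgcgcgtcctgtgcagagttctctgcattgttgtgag
Zfp719: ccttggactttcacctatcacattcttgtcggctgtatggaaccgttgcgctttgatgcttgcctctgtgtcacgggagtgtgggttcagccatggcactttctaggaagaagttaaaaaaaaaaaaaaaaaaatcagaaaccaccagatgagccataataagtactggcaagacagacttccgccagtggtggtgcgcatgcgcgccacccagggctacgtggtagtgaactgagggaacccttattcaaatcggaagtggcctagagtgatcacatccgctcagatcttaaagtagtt
CCGGAAG was present in 22.8% of the 228 member promoters and in 19.0% of the promoters of all symbols tested, with 8.86% of all 32851 promoters in the table. The letters TGANTCA, an AP-1 motif, stood in 3.07% of member promoters against 4.94% among tested symbols and 7.81% in all promoters. The kappa-B motif, searched by its name on both strands, stood in 3.51%, 5.40% and 4.51%. A member could have several promoters, which can overlap, or none. Among the 30 promoters of 24 members that rose with LPS, 8 held the ETS letters, 1 the AP-1 letters and 2 the kappa-B motif. Among the 140 promoters of 119 members that fell, these numbers were 30, 4 and 6. These are matches of letters in a short window, and no difference between the sets was tested.

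Most members were lower in LPS than in Veh, and a small set was higher. The question of this comparison is which genes respond to LPS in macrophages without T0. Of the 229 members, 140 were lower and 30 higher in LPS than in Veh (edgeR quasi-likelihood test, Benjamini-Hochberg adjusted p under 0.05 over 9444 symbols), and 59 did not pass. In all tested symbols 31.2% were called lower and 33.0% higher, whereas among the members the shares were 61.1% and 13.1%. Of the 211 members with 1 transcript row in the count table, 62.6% were lower and 10.9% higher. Of the 18 with several rows, the shares were 44.4% and 38.9%, and the part of row number was not tested. The median log2 fold change of the members was −0.50 with quartiles of −0.89 and −0.10, against −0.00 for all symbols tested. Symbols near the members' level also leaned down. Between the quartiles of the members' counts, 43.2% of 2412 symbols were lower and 19.6% higher (median −0.20). Of the 115 members in that range, 70.4% were lower and 6.96% higher (median −0.54). The median was −0.93 in the 57 members with the fewest counts and −0.06 in the 58 with the most. Of those 58, 39.7% were lower and 24.1% higher. The part of level in the gap was not tested. Of the called members, 44 fell at least 2-fold and 8 rose at least 2-fold, beside 6.99% and 8.21% of all symbols. Groups that did not overlap at all in 3 against 3 libraries were found for 148 members below Veh and 32 above it, while 33.5% and 33.9% of all symbols were so separated.

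The counts of calls depended on the scaling of the libraries. With library totals in place of the TMM scaling, the median of all symbols moved to −0.28 and of the members to −0.78, and 187 members were called lower and 18 higher. Under that scaling 56.4% of all symbols were called lower and 17.9% higher, so the shift was shared by all symbols. Fewer cells and less RNA per cell of a type cannot be told apart in such bulk samples. In raw terms, the members took 0.544% to 0.551% of all counts in the 3 Veh libraries, 0.435% to 0.476% in LPS and 0.460% to 0.464% in T0+LPS. The median member was at 10.9 to 11.1 CPM in Veh, at 6.97 to 7.41 in LPS and at 7.23 to 7.97 in T0+LPS, so Veh was above every treated library. The summed level of all members was 4758 to 4857 CPM in Veh, 4653 to 5021 in LPS and 4899 to 4964 in T0+LPS, where every library was above every Veh library. Without Zfp263 the sums were 4657 to 4758 in Veh, 4003 to 4330 in LPS and 4248 to 4306 in T0+LPS, and every treated library was below every Veh library.

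**Figure D1:**
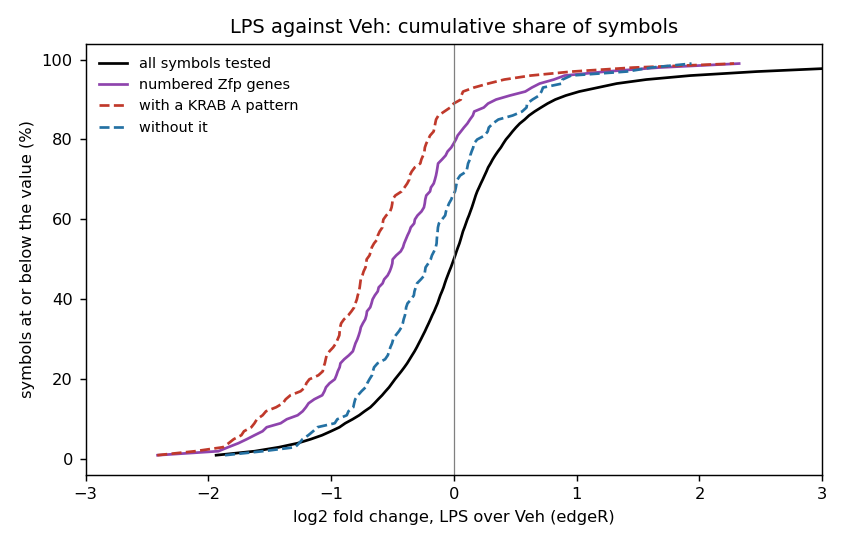
Cumulative share of symbols (%) against the log2 fold change of LPS over Veh from the edgeR fit, for all 9444 symbols tested, the 229 numbered Zfp genes, and the members with (128) and without (100) a KRAB A pattern, drawn from 1% to 99% of each set. The member curve lies left of the curve of all symbols, with a median of −0.50 against −0.00, and the KRAB curve lies furthest left with a median of −0.71.

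Members with the KRAB pattern had a lower median than members without it. Of 128 members with the KRAB pattern, 92 were lower and 8 higher, with a median log2 fold change of −0.71. Of 100 members without it, 47 were lower and 22 higher, with a median of −0.19. With library totals the counts were 115 lower and 7 higher with the pattern, and 71 lower and 11 higher without it. By number of fingers the median was −0.30 for the 29 members with 0 to 4, −0.35 for the 66 with 5 to 9, −0.59 for the 85 with 10 to 14 and −0.41 for the 48 with 15 or more. The classes differ in level as well as in structure. The median CPM of KRAB members was 7.84 to 7.98 in Veh and 4.73 to 5.21 in LPS, and that of the others was 22.3 to 22.7 and 16.3 to 17.0. The part of level in the class difference was not tested. A floor on the sum over 9 libraries also admits a member that is high in 1 group and low in the others.

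**Figure D2:**
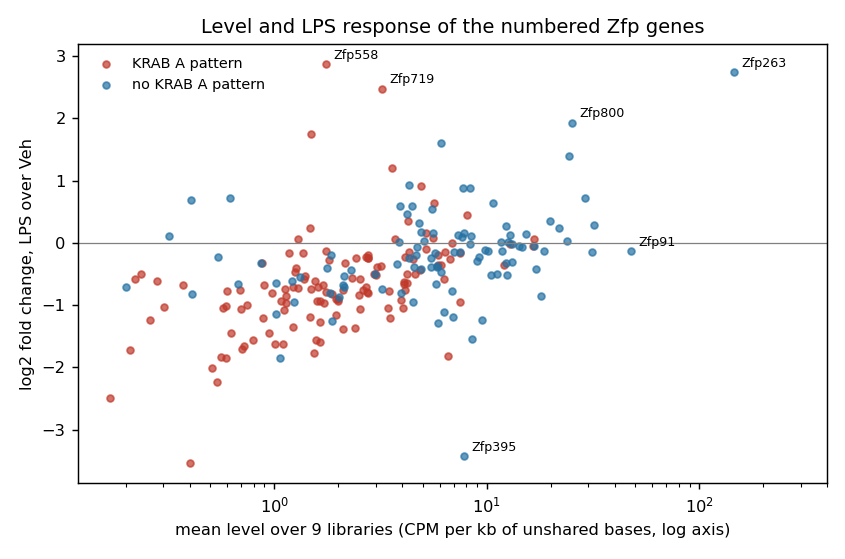
Each point is 1 member with a matched protein, its mean level over 9 libraries (CPM per kb of unshared bases, log axis) on the x axis and its log2 fold change of LPS over Veh on the y axis, coloured by whether a KRAB A pattern was found. Zfp263 stands at the highest level, 146 CPM per kb, with a rise of 2.74, and Zfp395 stands at −3.43 at a level of 7.84 CPM per kb. The level takes in the LPS-treated libraries, so it includes part of the response on the y axis.

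Zfp558 and Zfp263 rose most among members at a mean of at least 2 CPM. Zfp558, a KRAB-type gene on chromosome 9 (18454054 to 18473559 in mm10, minus strand) with 9 fingers, had 1.55, 1.92 and 1.22 CPM in the Veh libraries and 11.6, 11.4 and 11.2 in LPS. The groups did not overlap, and the rise was 7.32-fold (log2 2.87, SE 0.16, adjusted p = 1.03e-10). Zfp263 lies on chromosome 16 (3744099 to 3750788, plus strand), and in its protein 9 fingers and no KRAB pattern were found. It had 99.3, 96.9 and 101 CPM in Veh and 642, 650 and 691 in LPS. This is 6.68-fold (log2 2.74, SE 0.05, adjusted p = 1.80e-17), and it was the member with the most reads.

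The pair of neighbours Zfp658 and Zfp719 rose as well. Both lie on the plus strand of chromosome 7 with a gap of 4124 bases between them, and both have the KRAB pattern, with 21 and 13 fingers. Zfp719 had 3.32, 3.57 and 4.63 CPM in Veh and 22.4, 21.3 and 20.5 in LPS, a log2 rise of 2.48 (SE 0.12, adjusted p = 1.57e-11). Zfp658 had 1.71, 1.52 and 2.32 CPM in Veh and 6.89, 5.09 and 6.95 in LPS, a log2 rise of 1.75 (SE 0.20, adjusted p = 9.61e-07). Groups did not overlap for either gene. How reads that match both neighbours were assigned was not given, so their separate levels are uncertain.

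Zfp800 and Zfp131, like Zfp263 without the KRAB pattern, rose by 1.93 and 1.40 on the log2 scale (adjusted p = 2.49e-14 and 6.43e-13). Zfp800 had 34.5, 32.8 and 32.4 CPM in Veh and 120, 125 and 135 in LPS. Zfp131, a BTB-domain transcription factor, had 35.8, 35.1 and 36.6 CPM in Veh and 96.2, 90.4 and 97.5 in LPS. Zfp607 and Zfp654 rose by 0.90 and 0.88, from means of 11.2 and 23.6 CPM to 21.0 and 43.5 CPM. For all 8 genes every LPS library was above every Veh library.

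Zfp395 fell most among members at a mean of at least 2 CPM. Its libraries were at 84.4, 83.0 and 80.1 CPM in Veh and at 6.65, 7.35 and 8.96 in LPS, and the fall was 10.8-fold (log2 −3.43, SE 0.08, adjusted p = 1.42e-15). Its translated protein has 1 finger and no KRAB pattern. Zfp90, a KRAB-type repressor, had 30.3, 32.8 and 30.0 CPM in Veh and 8.40, 8.95 and 9.11 in LPS, a log2 fall of −1.81 (SE 0.08, adjusted p = 1.30e-11). Zfp420, with 19 fingers, had 6.32, 7.08 and 5.39 CPM in Veh and 1.19, 1.89 and 2.08 in LPS (log2 −1.85, adjusted p = 7.24e-07). The other 5 of the 8 deepest falls by rule, Zfp324, Zfp493, Zfp229, Zfp773 and Zfp273, ran from −1.76 to −1.62, and in each every LPS library was below every Veh library. Zfp791 had a lower value still, −3.54, but at a mean of 0.942 CPM and with counts of 4, 1 and 3 in LPS against 48, 39 and 38 in Veh. Zfp791 met the floor mainly through Veh. It is named because it has the lowest value of all members, chosen after the values were seen.

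**Figure D3:**
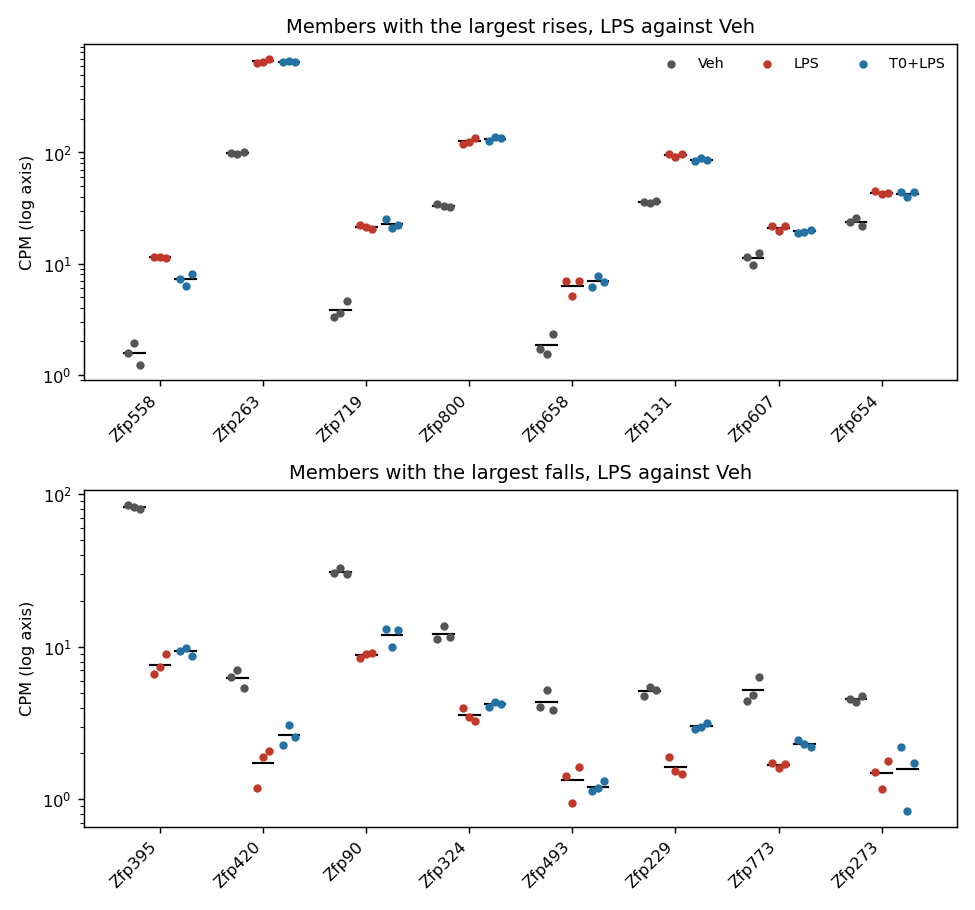
CPM in each of the 9 libraries (log axis) for the 8 members with the largest rises and the 8 with the largest falls, LPS against Veh, among members at a mean of at least 2 CPM whose groups did not overlap. Points are libraries and black bars are group means. Zfp263 goes from 96.9 to 101 CPM in Veh to 642 to 691 in LPS, and Zfp395 from 80.1 to 84.4 to 6.65 to 8.96.

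Members known outside the KRAB family were called in both directions, in shares near those of all symbols. Of the 26 numbered members of this list in the table, 19 were tested and 7 were lower and 8 higher, and with library totals 11 were lower and 5 higher. The shares of 36.8% and 42.1% stand beside 31.2% and 33.0% of all symbols. Zfp652 fell by 1.23 (from 40.5, 39.5 and 41.0 CPM to 15.3, 17.7 and 18.5). Zfp644, a partner of the G9a histone methyltransferase, fell by 0.66, Zfp608 by 0.70, Zfp292 by 0.47, Zfp64 by 0.39, Zfp318 by 0.33 and Zfp148, a GC-box-binding factor, by 0.30. Higher were Zfp131 (1.40), Zfp143 (0.63), Zfp827 (0.69), Zfp217 (0.94), Zfp516 (1.60), Zfp703 (0.88), Zfp335 (0.13) and Zfp609 (0.18). Zfp143, an activator that binds many promoters, had 26.5, 23.0 and 24.9 CPM in Veh and 39.4, 36.7 and 39.8 in LPS. Zfp516 and Zfp703 rest on 206 and 134 unshared bases and on under 3 CPM in every library. With library totals Zfp335 was called lower instead (−0.15), and Zfp609 (−0.10) and Zfp703 (0.61) were not called. Leaving out LPS replicate 3 ended the call of Zfp516 (0.98, adjusted p = 0.0744), Zfp335 (0.07), Zfp609 (0.08) and Zfp703 (0.77). Zfp335 was not called without any 1 of Veh replicates 1 to 3 (0.15, 0.12 and 0.12) or without LPS replicate 1 (0.13), nor with DESeq2 (adjusted p = 0.123) or no filter (adjusted p = 0.140). Zfp609 was not called without Veh replicate 2 (0.17), Veh replicate 3 (0.16) or LPS replicate 1 (0.16), nor with DESeq2 (adjusted p = 0.0748) or all 9 libraries in 1 fit (adjusted p = 0.0568). Zfp703 was not called without Veh replicate 3 (0.70) or LPS replicate 1 (0.68), nor with DESeq2 (adjusted p = 0.0736). With its rows tested separately Zfp217 was not called (0.49, adjusted p = 0.198).

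Members with roles in RNA, ribosomes, ubiquitin, SUMO or the spindle were mixed, with 4 of 10 higher and 3 lower, which lies near the 33.0% and 31.2% of all symbols. With library totals 2 were higher and 5 lower. Zfp598, a ubiquitin ligase that acts on collided ribosomes, rose by 0.71, from 69.4, 67.5 and 65.9 CPM in Veh to 114, 103 and 116 in LPS. Zfp622, a factor of large-subunit ribosome maturation, rose by 0.28, Zfp593 by 0.47 and Zfp451, a SUMO ligase, by 0.59. Zfp207, a spindle assembly factor, fell by 0.52, Zfp91, a ubiquitin ligase, by 0.14 and Zfp106, an RNA-binding protein, by 0.15. The call of Zfp91 was lost without Veh replicate 1 (−0.13), Veh replicate 3 (−0.14) or LPS replicate 1 (−0.12). That of Zfp593 was lost without Veh replicate 1 (0.37) or LPS replicate 1 (0.41) and, as for Zfp622 (0.00), with library totals (0.19). Zfp706 did not pass (0.03, adjusted p = 0.554), although its groups did not overlap. Among the silencing members, 3 of 6 in the table were tested, and Zfp809, a KRAB protein that silences retroviruses, fell by 0.92 and Zfp932 by 0.56. Zfp445, which guards imprinted loci, was at −0.06 and was not called.

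Of the members with the most fingers, Zfp142 was lower (−0.19, SE 0.06, adjusted p = 0.0182) and Zfp619 also (−0.41, SE 0.16, adjusted p = 0.0342), but the groups of Zfp619 overlapped. The call of Zfp142 was lost without Veh replicate 1 (−0.17), and that of Zfp619 without Veh replicate 1 (−0.29), Veh replicate 2 (−0.33), LPS replicate 1 (−0.38) or LPS replicate 2 (−0.38). DESeq2 also ended the call of Zfp142 (adjusted p = 0.0573) and of Zfp619 (adjusted p = 0.0507), as did limma-voom for Zfp619 (adjusted p = 0.0567). Zfp462 and Zfp236 were at 0.11 and −0.14 and did not pass, although Zfp236 was called without LPS replicate 3 (−0.26) and with library totals (−0.42). Just inside the floor, Zfp9 fell by 2.48 and Zfp414, which has 77 unshared bases, by 1.55, whereas Zfp112 had −0.51 and was not called. Zfp9 had counts of 23, 18 and 19 in Veh and 1, 2 and 5 in LPS. Those of Zfp414 were 21, 16 and 17 in Veh and 4, 4 and 6 in LPS. Zfp9 and Zfp414 met the floor mainly through Veh, where they were high, so their falls are a description only.

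Members lie in runs along the genome, and the median log2 fold change of each run was below 0, as was that of all members (−0.50). Taking starts within 500 kb of the next member on one chromosome, 14 runs of at least 4 members held 104 of the 229. Of these 104 members, 70 were lower and 5 higher (67.3% and 4.81%), against 70 and 25 of the 125 outside (56.0% and 20.0%). In all symbols the shares were 31.2% and 33.0%. Most members in runs have the KRAB pattern, and of all members with it 71.9% were lower and 6.25% higher. The part of position apart from the pattern was not tested. The largest run, Zfp712 to Zfp273 on chromosome 13, had 16 members, all with the KRAB pattern, of which 11 were lower and 1 higher (median −0.45). The run Zfp709 to Zfp961 on chromosome 8 had 4 members, all lower, with a median of −0.92. The run Zfp930 to Zfp866 on chromosome 8 had 5 members, of which 4 were lower and Zfp869 was higher (log2 1.21, SE 0.29, adjusted p = 0.00183). Zfp869 rose from 0.643, 0.728 and 0.637 CPM to 1.51, 1.89 and 1.24 and rests on 311 unshared bases, and it is named after its value was seen. The highest median run value was −0.27.

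**Figure D4:**
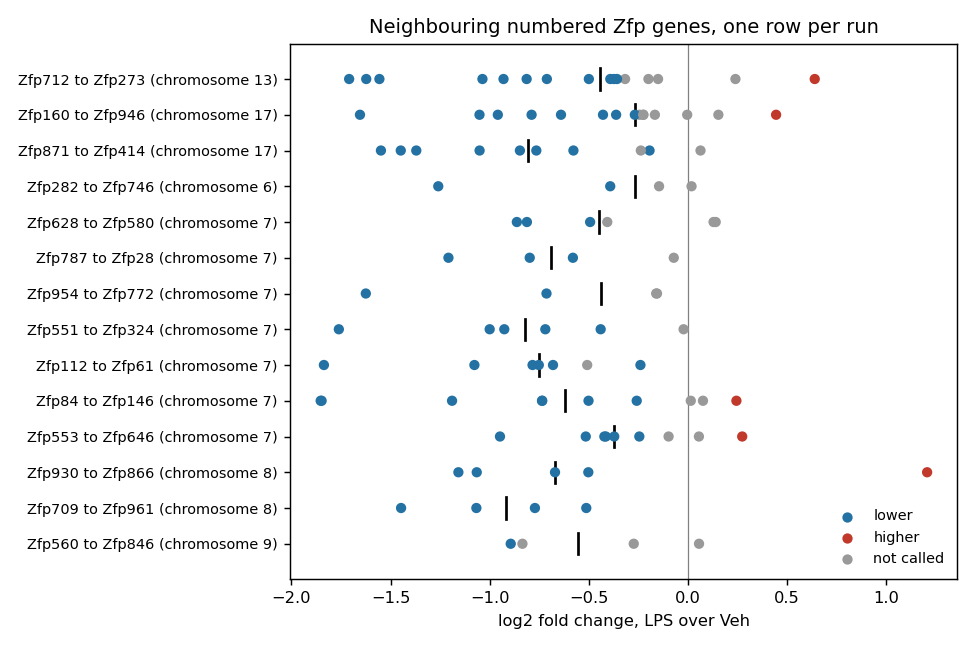
Log2 fold change of LPS over Veh for the members of the 14 runs of neighbours, 1 row per run named by its first and last member. Points are members (blue called lower, red called higher, grey not called) and black bars are run medians, which all lie below 0.

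Other zinc finger families are given from the same libraries, and the SCAN families had a median close to that of the members. In LPS against Veh 31.2% of all symbols were lower and 33.0% higher, or 56.4% and 17.9% with library totals. Of 11 tested genes of the SCAN families (Zscan and Zkscan names) 9 were lower and the other two did not pass, with a median of −0.56, and the 1 Znf-named gene tested was lower (−1.06). Of 28 BTB family genes 13 were lower and 8 higher (46.4% and 28.6%), or 20 and 5 with library totals. The medians of the 13 CCCH and 15 DHHC genes were 0.05 and −0.06 (−0.23 and −0.34 with library totals). Of the corepressor genes that KRAB proteins use, 21 were in the count table and 16 were tested. Setdb1 and Uhrf1 had no read and may not have been countable. Dnmt1, Cbx5 and Pphln1 fell under the floor, with 3, 26 and 60 counts. Their response to LPS was therefore not tested. The tested corepressors were called in shares near those of all symbols. Of these 16, 6 were lower and 5 higher (37.5% and 31.2%), or 10 and 3 with library totals. Trim28 itself was at 194 CPM in Veh and 179 in LPS (means of 3; log2 −0.12, SE 0.04, adjusted p = 0.0167). Atf7ip, a partner of the histone methyltransferase Setdb1, fell by 1.33, Chd3 by 0.31 and Cbx3, an HP1 protein, by 0.31. Morc2a fell by 0.29 and Morc3 by 0.11. Chd4 rose by 0.58, Hdac2 by 0.49, Hdac1 by 0.47, Sumo2 by 0.35 and Mphosph8 by 0.15.

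T0 before LPS changed few members. The question of this comparison is what the LXR agonist adds in LPS-treated cells. Only 1 member was called lower and 2 higher in T0+LPS than in LPS, while 1.73% and 1.38% of all symbols were called. At an unadjusted p under 0.05 there were 26 of 229 members and 1304 of 9444 symbols. The median log2 fold change of the members was 0.07 and of all symbols 0.01, and 9 members lay wholly below and 28 wholly above the LPS libraries, beside 9.61% and 9.45% of all symbols. As a check of the agent, the 4 genes Abca1, Abcg1, Srebf1 and Scd2, known LXR targets, were all higher.

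Zfp558, the member that LPS raised most, was the one called lower. It had 11.6, 11.4 and 11.2 CPM in LPS and 7.23, 6.33 and 8.04 in T0+LPS, and the log2 fold change was −0.66 (SE 0.12, adjusted p = 0.00552). T0+LPS stayed above Veh (1.55, 1.92 and 1.22), so the level lay between the other groups and no library of one group overlapped another. Zfp229, a KRAB-type gene of the chromosome 17 run Zfp160 to Zfp946 with 16 fingers, had 4.77, 5.49 and 5.21 CPM in Veh, 1.90, 1.53 and 1.47 in LPS and 2.89, 2.99 and 3.19 in T0+LPS. The difference of T0+LPS from LPS was 0.89 (SE 0.22, adjusted p = 0.0334), and leaving out any 1 of the 6 libraries gave an adjusted p of 0.063 to 0.101. Zfp408, with 10 fingers and no KRAB pattern, had 16.5, 18.8 and 17.1 CPM in LPS and 23.1, 21.0 and 22.2 in T0+LPS, a log2 difference of 0.34 (SE 0.09, adjusted p = 0.0418). Its Veh libraries, at 17.4, 16.8 and 17.2 CPM, overlapped those of LPS. The call of Zfp408 was lost with DESeq2 (adjusted p = 0.074) and in 5 of the 6 fits that left out 1 library, and the call of Zfp558 was kept in each of these fits.

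Other small p values did not pass the threshold. They were Zfp143 at −0.20 (adjusted p = 0.140), Zfp81 at −0.53 (adjusted p = 0.155) and Zfp90 at 0.44 (adjusted p = 0.0768). Zfp90 was called without T0+LPS replicate 2 (0.56, adjusted p = 0.0315), with no filter (adjusted p = 0.0125) and with all 9 libraries in 1 fit (adjusted p = 0.0333). Zfp81 was called without LPS replicate 2 (−0.69, adjusted p = 0.0400) and with no filter (adjusted p = 0.0430). Zfp90 had 13.1, 10.0 and 12.9 CPM in T0+LPS against 8.40, 8.95 and 9.11 in LPS. Zfp263 was at 651, 667 and 658 CPM in T0+LPS, and its log2 difference from LPS was −0.00 (SE 0.04), a difference smaller than the spread of the libraries. A missed threshold does not show that LPS and T0+LPS were alike in the other members.

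**Figure D5:**
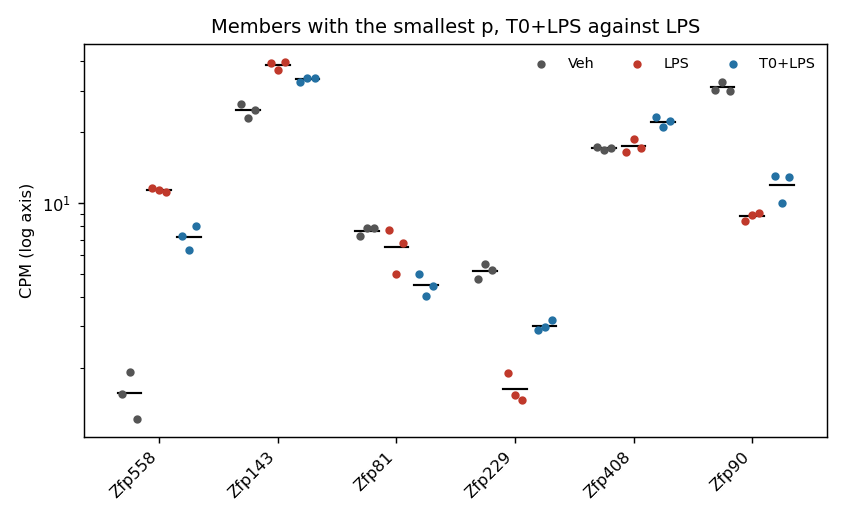
CPM (log axis) in the 9 libraries for the 3 members with the smallest p in each direction, T0+LPS against LPS. Zfp558 is called lower, Zfp229 and Zfp408 are called higher, and Zfp143, Zfp81 and Zfp90 do not pass the threshold. Points are libraries and black bars are group means.

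T0+LPS against Veh uses the same Veh libraries as LPS against Veh, so its values stand beside those and are not a second test. In that comparison 132 members were lower and 28 higher, while 33.5% and 32.4% of all symbols were called. The median was −0.43 in the members and −0.03 in all symbols, and by class it was −0.66 with the KRAB pattern and −0.11 without it. Zfp395 stood at 9.36, 9.88 and 8.73 CPM in T0+LPS, −3.17 from Veh on the log2 scale, and Zfp263 at 2.71.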

How the data were processed

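RNA was poly-dT selected and sequenced on 9 BMDM libraries. The deposited table holds raw counts per RefSeq transcript row, made by the authors with cutadapt, HISAT2 and featureCounts (Subread) on mm10. Reads on bases shared by rows, on either strand, were not counted: 6696 fully shared rows held 0 reads. 2 other deposited tables hold the authors' own comparisons and were not used.

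Rows were summed per symbol. Counts of the 9444 symbols with at least 90 counts over 9 libraries were tested in R 4.3.3 with edgeR 4.0.16 (TMM scaling, quasi-likelihood fit of the 6 libraries compared, Benjamini-Hochberg over all symbols), called at adjusted p under 0.05. SE is the log2 fold change divided by the square root of F. DESeq2 1.42.0 and limma 3.58.1 were alternatives. The fits were checked on simulated data. Depth was 13299044 to 16467983 counts. p-values measure the spread between 3 cultures per group. Replicates differed by more than sampling noise (chi-square per degree of freedom 2.75 to 7.18), and replicate numbers do not pair the samples.

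Fingers were counted by a pattern in GENCODE M21 coding sequences translated here, since RefSeq proteins were not used. The named genes were, among called members, the 8 largest rises and 8 largest falls at a mean of at least 2 CPM without overlap, all members called for T0 and the 3 smallest p where fewer than 3 were called, the 6 highest per kb, members of role lists, those near the floor, the corepressors called and the members with most fingers. The members and lists were chosen with earlier results of these data known.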

Additional observations from a re-analysis of the deposited data

How the results depend on the processing

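The counts of members in LPS against Veh kept within 1.5 times of 140 lower under all alternatives and within it for 30 higher except with library totals (18) and a fold of at least 1.5 (19). In T0+LPS against Veh the higher count of 28 was 12 with library totals and 13 with a fold of at least 1.5. For T0+LPS against LPS the lower count of 1 was 2 with no filter, and the higher count of 2 was 1 with a fold of at least 1.5 and 0 with DESeq2. Leaving out 1 library gave 1 to 2 lower and 0 to 1 higher. A replicate block gave 138 lower and 29 higher for LPS against Veh, 1 and 3 for T0+LPS against LPS, and 130 and 26 for T0+LPS against Veh, and correlations of same-numbered deviations ran from -0.03 to 0.052. With the block Zfp90 was called in T0+LPS against LPS (adjusted p = 0.0493) and Zfp335 was not in LPS against Veh (adjusted p = 0.0717). Of 140 members lower in LPS against Veh, 127 were called in every fit that tested them, and of 30 higher 16. With library totals the values of Zfp335, Zfp408, Zfp609 and Zfp706 in LPS against Veh turned to -0.15, -0.25, -0.10 and -0.25. The median of all symbols moved from -0.0009 to -0.28 with the same change of scaling, so a shift of this kind was not particular to these genes. Why the scalings differ was not tested. DESeq2 gave no adjusted p for Zfp229 in T0+LPS against LPS. Members of under 100 counts a library have wide errors.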
